A study of Mus musculus with 3 samples.

Results

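The CC chemokines that macrophages make were described in chromatin-associated RNA. The set comprised 10 genes, Ccl2, Ccl3, Ccl4, Ccl5, Ccl6, Ccl7, Ccl9, Ccl12, Ccl17 and Ccl22, and all 10 were found by symbol among the 55536 annotated genes of the gene tables. The samples were primary macrophages grown from bone marrow of C57BL/6J mice. Every culture had received 100 ng/ml Lipid A, the membrane-anchored portion of lipopolysaccharide and an agonist of TLR4, for 12 h, then a washout of 12 h, then 100 ng/ml Lipid A again for 20 min. RNA of the chromatin fraction was sequenced after removal of ribosomal RNA. There was 1 group with 3 libraries, named replicates 1, 2 and 3 by the labels, so the values are levels and their spread, and none is an effect of Lipid A. All 3 carry the same donor entry, and the spread between them may in part be technical.

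Chemokines are small secreted proteins that bind G protein-coupled receptors and draw leukocytes along a gradient. The CC family is named for a pair of adjacent cysteines near the amino terminus. Activated macrophages are a main source of CC ligands that bring monocytes and T cells into tissue, and many of these genes are induced by TLR4 through NF-kB and, for some, through interferon signalling. Chromatin-associated RNA holds many nascent and incompletely spliced transcripts, so a level there is not a level of finished mRNA or of protein.

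The gene tables held 13953780, 24222661 and 16571228 expected counts in replicates 1, 2 and 3, and the labels list 1 µg, 250 ng and 500 ng of starting RNA in the same order. Replicate and starting amount therefore cannot be told apart. Levels are given in TPM, a share of all transcripts scaled for effective transcript length. On that scale replicate 1 exceeded replicate 2 by 0.29 log2 units and replicate 3 by 0.04 in the median protein-coding gene. Spread is therefore measured on log2 CPM, depth-scaled counts with TMM factors and no correction for length. All 10 macrophage markers examined were at 1 TPM or more in every library, in both quantifications deposited. Their summed level was 1141, 913 and 1126 TPM in replicates 1, 2 and 3.

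In all, 8 of the 10 chemokine genes reached 1 TPM in every library, a level that 45.2% of protein-coding genes reached. Together the 10 genes held 940, 191 and 374 TPM in replicates 1, 2 and 3 (502 ± 391, SD, n = 3). Ccl5 alone made up 41.7%, 37.0% and 35.3% of that sum. Ccl17 and Ccl22 were at or near 0.

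By mean TPM Ccl5, Ccl4 and Ccl3 ranked 1st, 2nd and 4th of the 10 genes. On CPM, which is not scaled for length, they ranked 1st, 5th and 6th. Ccl5, which attracts T cells and monocytes, had 392, 70.7 and 132 TPM in replicates 1, 2 and 3 (198 ± 171, SD, n = 3). Replicate 1 was far above both others, and Ccl5 was the highest of the 10 genes in each of the 3 libraries. It lay above 99.6%, 97.0% and 98.4% of protein-coding genes there. Ccl4, a close relative of Ccl3, had 148, 28.4 and 68.4 TPM in replicates 1, 2 and 3 (81.8 ± 61.1). Ccl3, a ligand of Ccr1, had 127, 16.3 and 46.9 TPM in replicates 1, 2 and 3 (63.4 ± 57.1). For each of these 3 genes replicate 1 was highest and replicate 2 lowest.

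The ligands of Ccr2, the receptor through which monocytes leave the bone marrow and enter inflamed tissue, ran from 12.2 to 69.1 TPM by mean. Ccl7 had 125, 30.2 and 52.3 TPM in replicates 1, 2 and 3 (69.1 ± 49.6, SD, n = 3). Ccl2, the best known monocyte attractant, had 83.1, 25.4 and 37.5 TPM in replicates 1, 2 and 3 (48.7 ± 30.4). Ccl12, a mouse ligand of Ccr2, had 26.6, 3.80 and 6.33 TPM in replicates 1, 2 and 3 (12.2 ± 12.5). The Ccl12 values rest on 99, 29 and 26 counts, against 756, 491 and 406 for Ccl2. Its effective length was also short, at 316, 292 and 288 bases of a 537-base transcript, so a single count weighs more in its TPM.

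Ccl6 and Ccl9 are rodent chemokines that signal through Ccr1. Ccl9 had 30.1, 7.29 and 18.9 TPM in replicates 1, 2 and 3 (18.8 ± 11.4, SD, n = 3). Ccl6 had 7.85, 8.75 and 11.6 TPM in replicates 1, 2 and 3 (9.40 ± 1.96). Ccl6 was thus the expressed chemokine with the smallest SD, and the one that was lowest in replicate 1. Its 69, 137 and 116 counts are fewer than the 946, 525 and 745 of Ccl9. The Ccl9 transcript is long, at 3006 bases, and on CPM, which is not scaled for length, Ccl9 ranked 2nd of the 10 by mean instead of 6th.

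Ccl17 and Ccl22 attract T cells through Ccr4 and are known from dendritic cells and alternatively activated macrophages. Ccl17 had 0, 0 and 1 count in replicates 1, 2 and 3. A count of 0 allows up to 3 counts, which for Ccl17 is 0.867 and 0.426 TPM in replicates 1 and 2, and the single count of replicate 3 is below that limit too. Ccl22 had 1, 4 and 3 counts, or 0.04, 0.08 and 0.11 TPM. In the second transcript table, another quantification of the same libraries, Ccl22 had 20, 19 and 15 counts and Ccl17 had 0, 0 and 5. Such limits cover counting error only, since reads are not independent molecules.

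**Figure D1:**
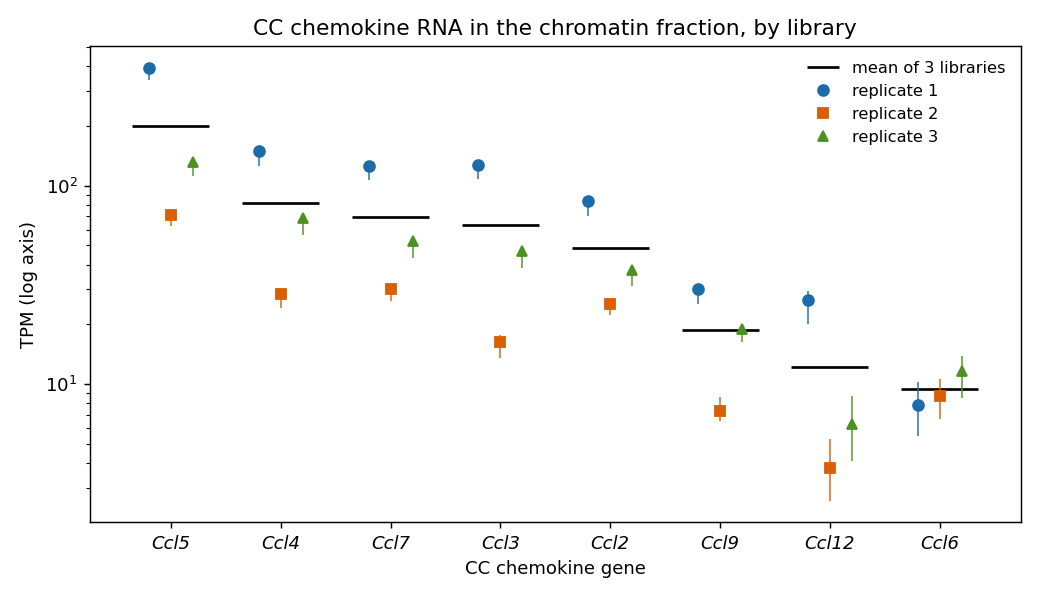
TPM of the 8 expressed CC chemokine genes (log axis) in replicates 1 (circles), 2 (squares) and 3 (triangles), with the mean of the 3 libraries as a black line and the deposited credible interval of each gene and library as a thin line. Some points of replicates 1 and 3 lie above their interval. Replicate 1 is the highest point for every gene but Ccl6, whose 3 values lie between 7.85 and 11.6 TPM. Ccl17 and Ccl22, at 0.26 TPM or less in every library, are not drawn.

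By mean TPM the order was Ccl5, Ccl4, Ccl7, Ccl3, Ccl2, Ccl9, Ccl12, Ccl6, Ccl17 and Ccl22. Of the 9 pairs of neighbours in this order, 1 differed by more than the root of its summed squared SDs, Ccl6 over Ccl17 (9.32 TPM apart, against 1.97). Some neighbours kept 1 order in every library although their means overlap. Ccl5 was above Ccl4, Ccl2 above Ccl9 and Ccl9 above Ccl12 in 3 of 3 libraries by TPM of the gene table. On CPM and in the second transcript table, Ccl9 was instead above Ccl2 in every library. In the second table the values of replicate 2 were close, 31.45 TPM for Ccl9 and 31.41 for Ccl2. The order of Ccl4, Ccl7, Ccl3 and Ccl2 was not the same in all libraries. In the second transcript table Ccl3 ranked 3rd, Ccl7 4th, Ccl9 5th and Ccl2 6th by mean TPM, and Ccl5 and Ccl4 kept the first places.

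The chemokine genes differed between the 3 libraries more than most genes did. Of the 10, 8 passed the filter of a mean of 50 counts, and Ccl17 and Ccl22 did not. The median SD of log2 CPM of these 8 was 0.96, against 0.19 for the 9540 protein-coding genes that passed the same filter, whose 95th percentile was 0.56. An SD of at least 1 was reached by 4 of the 8, Ccl3, Ccl12, Ccl5 and Ccl4, and by 0.681% of protein-coding genes. From the lowest to the highest library log2 CPM spanned 6.17-fold for Ccl3, 5.37-fold for Ccl12, 4.78-fold for Ccl5 and 4.20-fold for Ccl4. The folds were smaller for Ccl7 (3.29), Ccl9 (3.04), Ccl2 (2.59) and Ccl6 (1.44).

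Counting error alone was much smaller than this spread. The SD expected from the counts was 0.08 log2 units for Ccl3 and 0.05 for Ccl5, against measured SDs of 1.32 and 1.17. Ccl12 had the largest counting SD, 0.24, against a measured 1.31. For Ccl6 the counting SD was 0.15 and the measured SD 0.26, so its 3 libraries stood closer to what counts alone would give. No chemokine gene had reads that the gene tables left ambiguous between annotated transcripts of different genes, since the posterior SD of the gene count was 0 in every library for all 10, as it was for 65.9% of the protein-coding genes that passed the filter.

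The same library was high for nearly all of them. Ccl2, Ccl3, Ccl4, Ccl5, Ccl7, Ccl9 and Ccl12, 7 of the 8, had their top log2 CPM in replicate 1 and their bottom one in replicate 2, an order that 20.1% of protein-coding genes had. In TPM the same 7 genes had that order, and 42.9% of protein-coding genes did. In log2 CPM from the second transcript table it held for 6, and 19.2% of protein-coding genes did. In each of the 7 genes of the gene table replicate 1 was at least 1 log2 unit above replicate 2, which was so for 2.67% of protein-coding genes. The median deviation of the 8 genes from their own means was 1.03 in replicate 1, -0.91 in replicate 2 and -0.18 in replicate 3. Ccl6 went the other way, with deviations of -0.25, -0.02 and 0.28 log2 units in replicates 1, 2 and 3.

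Much of this spread rests on replicate 1. Without that library Ccl12, with 29 and 26 counts, no longer passed the filter, and 7 of the genes did. The median SD of all 8 was 0.38, against 0.14 for the protein-coding genes that passed. None of the 8 reached an SD of 1, as 0.762% of those protein-coding genes did. Ccl3 then kept the largest SD, 0.84, followed by Ccl9 with 0.74, little below its 0.81 with all libraries, and Ccl4 with 0.66, while Ccl2 had 0.19. In the second transcript table, from the same 3 libraries, Ccl12 and Ccl5 and 0.528% of protein-coding genes reached an SD of 1, at 1.18 for Ccl12 and 1.08 for Ccl5, while Ccl3 had 0.93 and Ccl4 0.86. Starting RNA, depth and replicate are 1 to 1 in this series, and what sets the libraries apart was not tested.

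**Figure D2:**
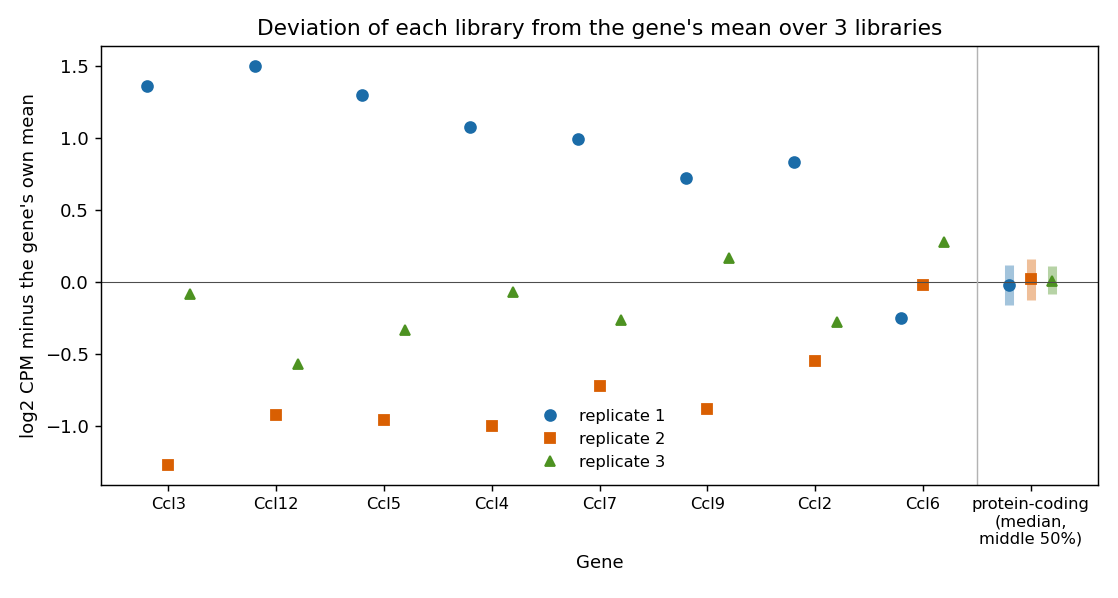
Deviation of each library from the gene's own mean (log2 CPM, TMM scaling) for the 8 chemokine genes that passed the filter on counts, ordered by SD, with the median and the middle 50% of protein-coding genes at the right. Replicate 1 (circles) is above the mean by at least 0.72 log2 units in 7 genes and below it in Ccl6, while the middle 50% of protein-coding genes lie between -0.16 and 0.16 log2 units.

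The deposited credible intervals set most libraries apart. Their level is not stated, and they centre on a posterior mean that can lie below the TPM itself. For Ccl3 they ran from 107.7 to 123.7 TPM in replicate 1, 13.6 to 17.7 in replicate 2 and 38.4 to 47.5 in replicate 3. The TPM of Ccl3 in replicate 1, 126.9, lay above its own interval. So did those of Ccl2, Ccl4, Ccl5 and Ccl7 in replicate 1 and of Ccl5 in replicate 3. The intervals of all 3 libraries were apart for 6 of the 8 genes, Ccl2, Ccl3, Ccl4, Ccl5, Ccl7 and Ccl9, and for 8.67% of protein-coding genes. For Ccl12 the interval of replicate 1 (20.0 to 29.6 TPM) stood apart, while those of replicate 2 (2.59 to 5.32) and replicate 3 (4.09 to 8.73) overlapped. The 3 intervals of Ccl6 overlapped, at 5.46 to 10.3, 6.69 to 10.6 and 8.52 to 13.9 TPM.

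Within a library, the ratios of some related chemokines varied less than their levels. Ccl2, Ccl3, Ccl4 and Ccl7 all had the same order of libraries. Ratios of unrelated members were not computed, so a steady ratio is not shown to be particular to related genes. The log2 ratio of Ccl4 to Ccl3, with 1 TPM added to each, was 0.22, 0.77 and 0.54 in replicates 1, 2 and 3 (0.51 ± 0.27, SD, n = 3). The ratio of Ccl7 to Ccl2 was 0.58, 0.24 and 0.47 (0.43 ± 0.18). Ccl4 was therefore above Ccl3, and Ccl7 above Ccl2, in every library. The ratio of Ccl12 to Ccl2 was -1.61, -2.46 and -2.39 (-2.15 ± 0.47), so Ccl12 was lower than Ccl2 throughout and nearest to it in replicate 1. The ratio of Ccl9 to Ccl6 had no fixed sign, at 1.81, -0.23 and 0.66 in replicates 1, 2 and 3 (0.75 ± 1.03), and Ccl6 was the higher of the pair in replicate 2 only. The ratio of Ccl22 to Ccl17 was 0.06, 0.11 and -0.18, which with 4 counts or fewer in each library describes the added 1 TPM more than the genes.

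By the distance of their centred log2 CPM profiles from the median chemokine profile, 5 of 9532 other protein-coding genes were nearest. These were Gm29094 (0.05 log2 units, root mean square over 3 libraries), the cyclin gene Ccnd2 (0.07), the survival gene Bcl2a1a (0.07), the cytokine gene Tnfsf15 (0.09) and the signalling adaptor gene Traf1 (0.09). Traf1 had 90.1, 18.2 and 40.9 TPM in replicates 1, 2 and 3. Bcl2a1a has near-identical copies in the mouse genome, and the deposited posterior SD of its count was 6.86, 4.49 and 5.02 for 120, 58.2 and 62.8 counts in replicates 1, 2 and 3. For Gm29094 it was 17.3, 9.37 and 16.4 for 128, 51.1 and 63.1 counts. The median distance of all ranked genes was 0.83. Among the chemokines themselves Ccl4 was nearest (0.09) and Ccl6 farthest (0.94). With 3 libraries, a near profile describes 3 points only.

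The genes lie in 3 blocks of the mm10 genome. Ccl2, Ccl7 and Ccl12 lie on chromosome 11 between 82035571 and 82103400, and held 235, 59.4 and 96.1 TPM in sum in replicates 1, 2 and 3. Ccl5, Ccl9, Ccl6, Ccl3 and Ccl4 lie farther along chromosome 11, between 83525778 and 83664683, with 706, 131 and 278 TPM. Ccl22 and Ccl17 lie on chromosome 8, between 94745590 and 94812036, with 0.04, 0.08 and 0.37 TPM. No other protein-coding gene inside these blocks averaged 1 TPM in the gene table. The eosinophil attractant Ccl11, between Ccl7 and Ccl12, had 0.47 ± 0.62 TPM there and 1.76 ± 0.70 TPM in the second transcript table, Rpl9-ps1 had 0.20 ± 0.25 TPM, and Cx3cl1, between Ccl22 and Ccl17, had 0.0033 ± 0.0058 TPM (SD, n = 3). These 3 genes were named after their values were seen. In TPM, high and low genes stood next to each other, with Ccl5 at 198 and Ccl9 at 18.8 by mean, and Ccl5 the higher in every library. On CPM, not scaled for length, the means were 68.3 and 45.5, and Ccl9 was the higher in replicate 3. In the second transcript table the mean TPM was 272 for Ccl5 and 76.4 for Ccl9.

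**Figure D3:**
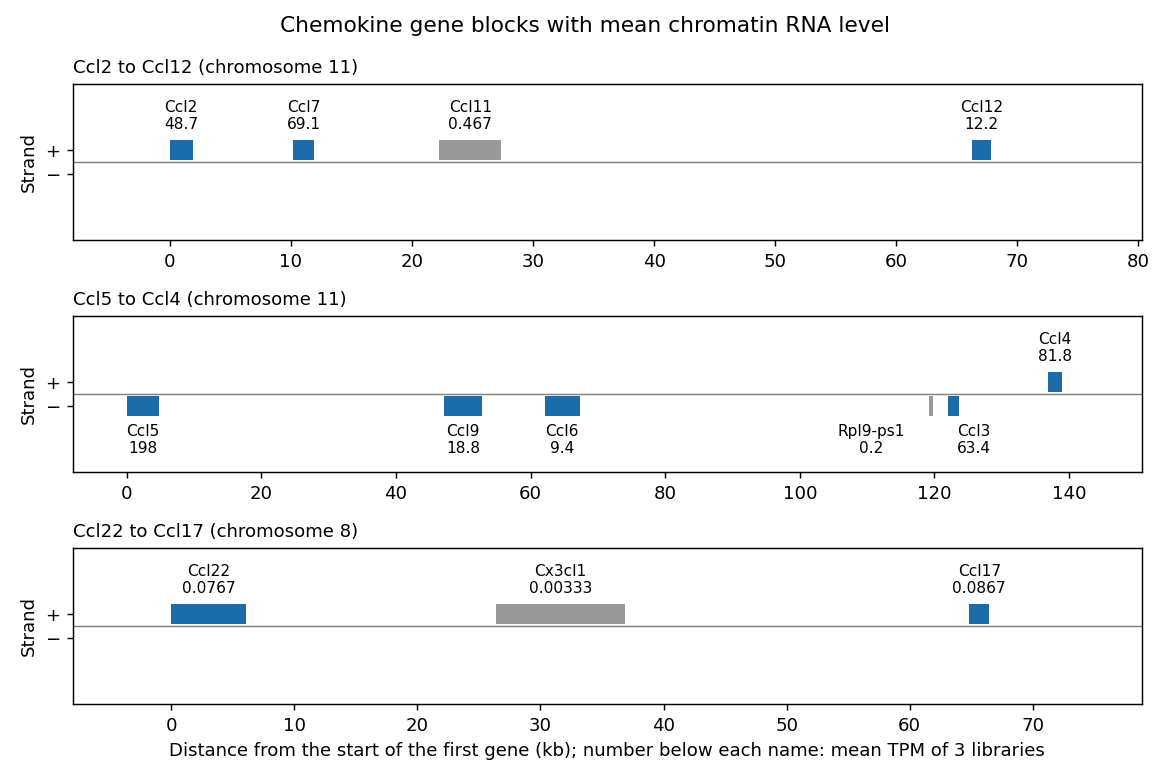
Protein-coding genes of the 3 chromosomal blocks, drawn to scale by distance in kb from the start of the first gene, above the line on the plus strand and below it on the minus strand, with mean TPM over 3 libraries below each name. Chemokines of the set are blue and other genes grey; the 0.467 TPM of Ccl11 lies between the 69.1 TPM of Ccl7 and the 12.2 TPM of Ccl12.

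Other genes overlap a pair of the chemokines on the opposite strand. Gm17268 overlaps Ccl2 and had 0 counts in every library, and E230016K23Rik spans Ccl6 and had 4, 2 and 2 counts. In the second transcript table Gm17268 had 9, 8 and 2 counts, against 1288, 941 and 671 for Ccl2. E230016K23Rik had 106, 127 and 105 counts there, against 121, 311 and 230 for Ccl6. Ccl6 lies in an intron of E230016K23Rik, and their annotated exons share 0 bases. Whether counting used strand is not stated, and reads from unspliced E230016K23Rik within Ccl6 could then not be told from those of Ccl6, which the posterior SD does not cover. No stretch of 31 bases of the annotated transcripts of one chemokine gene occurs in another of the 10. Coding sequences of the annotated proteins were at most 68.1% identical, for Ccl3 and Ccl4, followed by Ccl6 and Ccl9 at 64.6% and Ccl7 and Ccl12 at 63.2%. Of 3015 such stretches in Ccl9, 3.98% recur in transcripts of other genes, as do 1.02% in Ccl6 and 0.539% in Ccl5, and none in the other 7 genes.

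RefSeq promoter sequences (GRCm38.p6) were at hand for 6 of the genes, Ccl3, Ccl6, Ccl9, Ccl12, Ccl17 and Ccl22. The 250 bases before the RefSeq start were searched on both strands for the kappaB consensus, the core of the interferon response element, the AP-1 motif TGANTCA and TATAAA. Those of Ccl9 and Ccl12, which held a match, and of Ccl6, which held none, are shown with matches in capitals, 5′ to 3′ along the gene. They lie on chromosome 11, at chr11:83578637-83578886 on the minus strand (Ccl9), chr11:82101595-82101844 on the plus strand (Ccl12) and chr11:83593088-83593337 on the minus strand (Ccl6).
Ccl9: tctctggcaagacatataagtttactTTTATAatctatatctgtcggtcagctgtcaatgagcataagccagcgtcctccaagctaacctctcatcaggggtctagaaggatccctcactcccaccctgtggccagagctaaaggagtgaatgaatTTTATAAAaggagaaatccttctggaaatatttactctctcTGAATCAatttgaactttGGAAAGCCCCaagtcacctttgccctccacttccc
Ccl12: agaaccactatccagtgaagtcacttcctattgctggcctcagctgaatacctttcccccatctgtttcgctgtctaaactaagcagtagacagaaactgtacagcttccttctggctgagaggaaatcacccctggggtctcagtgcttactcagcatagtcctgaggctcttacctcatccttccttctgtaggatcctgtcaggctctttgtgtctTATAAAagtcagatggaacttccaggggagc
Ccl6: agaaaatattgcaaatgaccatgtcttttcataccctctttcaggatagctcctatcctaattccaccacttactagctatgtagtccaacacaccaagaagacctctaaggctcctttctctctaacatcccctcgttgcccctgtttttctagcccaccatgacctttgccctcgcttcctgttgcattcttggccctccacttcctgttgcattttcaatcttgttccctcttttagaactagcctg
Ccl9 held the kappaB consensus on the reverse strand, 35 bases before the start, and the AP-1 motif at 53 bases. It also held TATAAA, on the forward strand at 92 bases and on the reverse strand at 94 and 224 bases, the first pair overlapping. Ccl12 held TATAAA at 31 bases, and Ccl6 none of the 4 motifs. Ccl3, which had the largest SD of log2 CPM of the 8 expressed genes, also held none, as did Ccl17 and Ccl22. The window of Ccl3 stops at 83649379 on the minus strand, short of the GENCODE start at 83649355. That of Ccl22 runs to 94745683 on the plus strand, past the GENCODE start at 94745590. For these genes the window is thus not the 250 bases before the GENCODE start. Of the 6 chemokine promoters 1 held the kappaB consensus, 0 the interferon response core, 1 the AP-1 motif and 2 TATAAA. Among 32851 promoters of the same length the shares were 7.25%, 2.98%, 6.75% and 12.4%. A match describes letters and is not a binding site, and no match says only that these letters are absent from this window.

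In TPM, retained introns were a large part of the chemokine signal where the annotation allows them to be counted. Ccl2, Ccl5 and Ccl6 are the genes of the set with annotated retained-intron transcripts. Most reads from introns of the others had no transcript to be assigned to. The exceptions are 39 bases of the processed transcript Ccl9-202 and 109 of Ccl22-202, which lie within introns of the coding transcripts. In Ccl2 the retained-intron transcript Ccl2-202 took 63.6%, 60.9% and 68.7% of the gene's TPM in replicates 1, 2 and 3 (64.4 ± 4.0, SD, n = 3). In Ccl5 the transcript Ccl5-202 took 65.5%, 49.0% and 60.0% (58.1 ± 8.4). In Ccl6 the transcripts Ccl6-202 and Ccl6-203 together took 54.5%, 67.2% and 59.5% (60.4 ± 6.4). These rest on few counts, 10.6, 27.05 and 26.2 for Ccl6-202 and 7, 20.5 and 9.77 for Ccl6-203 in replicates 1, 2 and 3. The coding Ccl6-201 is longer and had more counts, 51.4, 89.4 and 80.0, so the larger share of the other forms holds in TPM and not in counts. Ccl6-202 has 71 bases outside Ccl6-201, and the posterior SD of its count was 4.69, 6.91 and 6.08. Over 6149 genes with such transcripts the median share was 47.6%, 47.6% and 45.9% in replicates 1, 2 and 3. The upper quartile there was 63.4%, 63.2% and 61.4%, so Ccl2 was above it in replicates 1 and 3. Ccl5 and Ccl6 were between it and the median, except Ccl5 in replicate 1 and Ccl6 in replicate 2, which were above it.

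The sequences show what these shares rest on. Exon 2 of Ccl2 ends at position 82036600 of chromosome 11 on the plus strand. Intron 2, 325 bases long, runs from 82036601 to 82036925 and is held whole by Ccl2-202. In Ccl5, on the minus strand, exon 2 ends at 83529156, and Ccl5-202 runs on into the first 428 of the 3091 bases of intron 2. Each line has the last 30 coding bases of exon 2 in lower case and the next 30 bases of the transcript in capitals, from exon 3 in the spliced transcript and from intron 2 in the retained one (chr11:82036571-82036630 for Ccl2-202, chr11:83529126-83529185 for Ccl5-202, GENCODE M21).
Ccl2-201: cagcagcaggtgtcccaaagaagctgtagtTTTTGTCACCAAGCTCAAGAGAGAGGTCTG
Ccl2-202: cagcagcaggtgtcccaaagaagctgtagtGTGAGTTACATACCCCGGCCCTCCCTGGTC
Ccl5-201: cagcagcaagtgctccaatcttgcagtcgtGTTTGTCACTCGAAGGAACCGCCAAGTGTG
Ccl5-202: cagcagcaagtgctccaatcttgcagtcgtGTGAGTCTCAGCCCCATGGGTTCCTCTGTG
In Ccl2 the bases of intron 2 belong to Ccl2-202 alone, while exon 3 lies in both forms, so what sets Ccl2-201 apart there is a read across the junction. In Ccl5 the capital stretch of each form is absent from the other. Reads in the shared exons do not tell the forms apart. In TPM, Ccl5-202 had 257, 34.6 and 79.1 in replicates 1, 2 and 3, against 135, 36.1 and 52.8 for the spliced Ccl5-201. The retained form was thus above the spliced form in replicates 1 and 3, and close to it in replicate 2. Ccl2-202 had 52.8, 15.5 and 25.7 TPM, against 30.3, 9.94 and 11.7 for Ccl2-201, and was higher in every library. In the second transcript table Ccl2-202 was below Ccl2-201 in replicates 1 and 2, at 44.8 and 15.3 against 53.7 and 16.1 TPM, and its share over the 3 libraries was 49.99 ± 5.27%.

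In Ccl9 and Ccl12 the 2 transcript tables split the gene differently. The first gave the processed transcript Ccl9-202 1.57 ± 2.72% of the gene's TPM (SD, n = 3) and the second 77.3 ± 1.9%. In the second table Ccl9-202 had 95.9, 23.8 and 59.1 TPM in replicates 1, 2 and 3, while in the first it had 1.42, 0 and 0. The coding transcript Ccl9-201 had 18.3 ± 10.7 TPM in the first and 16.8 ± 8.7 TPM in the second. Of the 398 bases of Ccl9-202, 359 are shared with Ccl9-201 and 39 are its own first exon (83577104 to 83577142, minus strand), shown in capitals before the start of its next exon.
Ccl9-202: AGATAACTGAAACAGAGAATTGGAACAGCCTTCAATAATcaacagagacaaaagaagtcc
For Ccl12 the processed transcript Ccl12-202, which has no base of its own outside the exons of Ccl12-201, took 2.35 ± 2.98% in the first table and 26.7 ± 5.1% in the second. The mean level of the Ccl9 gene was 18.8 ± 11.4 TPM in the gene table and 76.4 ± 44.7 TPM in the second transcript table, in relative terms the largest shift among the 8 genes above 1 TPM. Replicate 1 was highest and replicate 2 lowest for Ccl9 in both tables. Ccl3, Ccl4 and Ccl7 have 1 annotated transcript each.

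**Figure D4:**
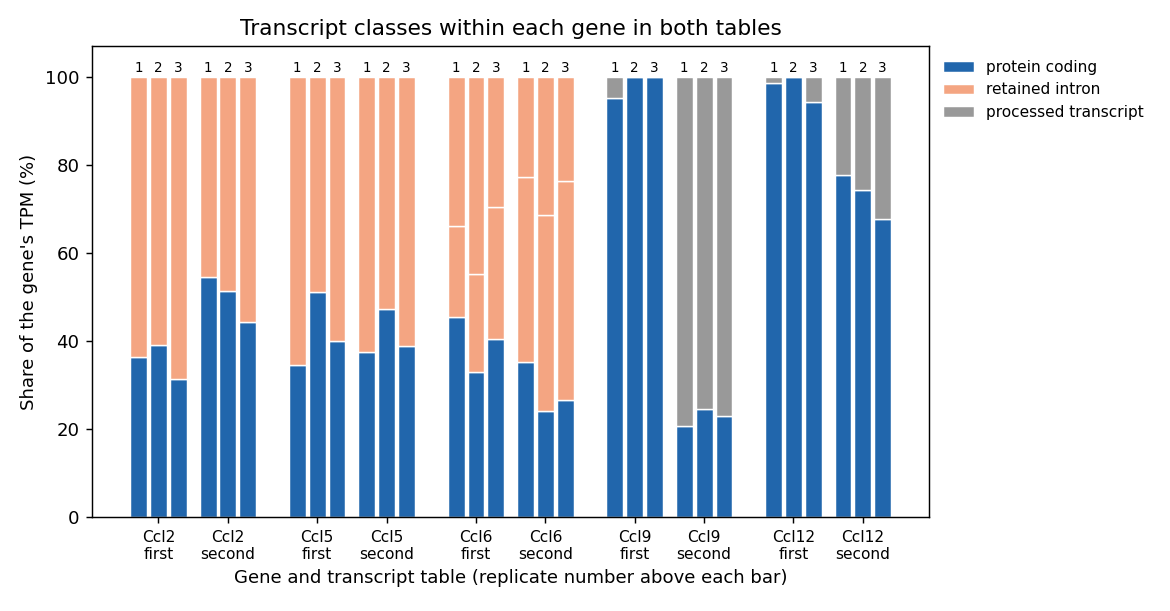
Share of each gene's TPM (%) held by protein-coding, retained-intron and processed transcripts in replicates 1, 2 and 3, for the first and the second transcript table. Retained-intron transcripts take 64.4% of Ccl2, 58.1% of Ccl5 and 60.4% of Ccl6 in the first table, while the processed transcript of Ccl9 holds 1.57% of the gene in the first table and 77.3% in the second (means of 3 libraries).

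The 2 quantifications also differed in how many reads they assigned. The first rests on a transcriptome alignment and the second on the reads directly, per the notes deposited with the libraries. Over protein-coding genes the second gave 1.60, 1.73 and 1.70 times the counts of the gene table in replicates 1, 2 and 3, by the median. For the 8 chemokine genes the medians were 2.01, 2.46 and 2.09. Ccl3 had ratios of 2.60, 4.80 and 3.33, Ccl4 of 3.10, 4.21 and 3.55, and Ccl12 of 2.72, 4.03 and 2.96. The ratio was 2 or more in every library for 4 of the 8, Ccl3, Ccl4, Ccl5 and Ccl12, and for 20.8% of protein-coding genes, a rule set after the values were seen. Ccl2 stood nearest to the median gene, at 1.70, 1.92 and 1.65. The ratio was highest in replicate 2 for each of the 8 genes, as it was for the median protein-coding gene. For Ccl3 the second table gave a gap between libraries that was smaller in relative terms, with 214, 46.9 and 91.7 TPM in replicates 1, 2 and 3. The cause was not tested.

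**Figure D5:**
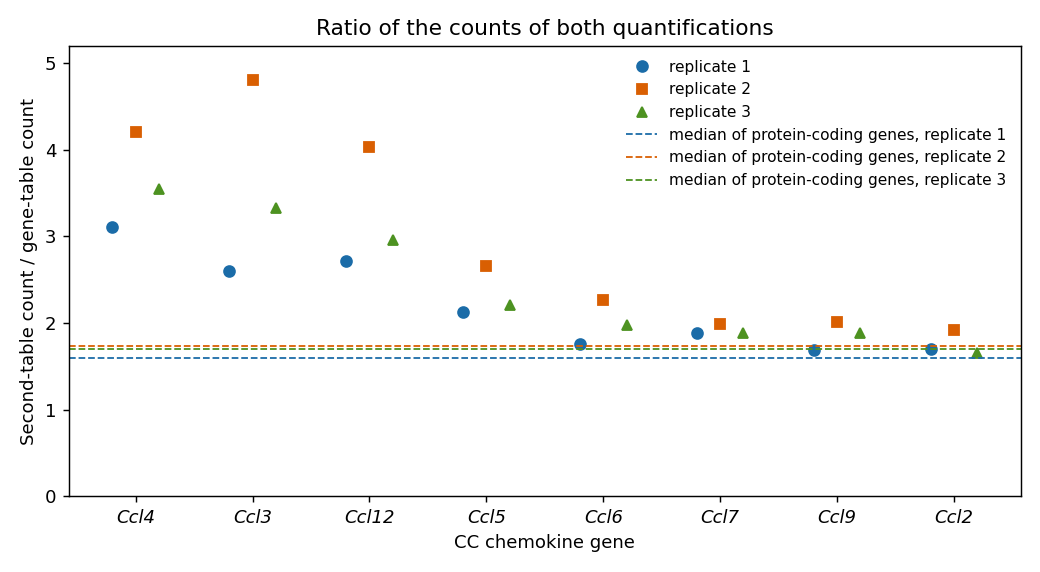
Count in the second transcript table divided by the count in the gene table for the 8 expressed chemokine genes in replicates 1 (circles), 2 (squares) and 3 (triangles), with the median of protein-coding genes in each library as a dashed line. Ccl3, Ccl4 and Ccl12 reach 2.60 to 4.80, while Ccl2 stays between 1.65 and 1.92.

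How many other CC ligands were seen depended on the table. Of 13 further CC chemokine genes 1 reached 1 TPM in every library of the gene table and 7 had 0 counts in all 3. Of the 13, 6 reached 1 TPM in every library of the second transcript table, Ccl25, Ccl24, Ccl8, Ccl11, Ccl28 and Ccl27a, and 5 had 0 counts. Ccl24 had the largest such gap, with 6.83 ± 1.60 TPM there (SD, n = 3) against 0.013 ± 0.023 TPM in the gene table. Ccl25, a ligand of Ccr9 known from thymus and gut, had 38.6, 27.4 and 33.3 TPM in replicates 1, 2 and 3, and its SD of log2 CPM was 0.06, against 0.26 to 1.32 for the 8 macrophage chemokines. Ccl8 had 2.10 ± 1.27 TPM from 11, 5 and 9 counts, Ccl27a had 0.92 ± 0.38 TPM, and Ccl1 was listed at 0. The highest library of Ccl25 exceeded its lowest by far less than for the 7 genes that were highest in replicate 1.

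The receptors of these ligands were uneven. Of 15 CC receptor genes, atypical ones included, 6 reached 1 TPM in every library and 2 had 0 counts throughout, and 8 reached it in the second transcript table. Ccrl2, an atypical receptor that binds chemerin, had 33.2, 8.43 and 30.9 TPM in replicates 1, 2 and 3, with replicates 1 and 3 close together. Ccr9 had 3.30 ± 0.96 TPM (SD, n = 3), and Ccr8 was listed at 0. Of the receptors named here, Ccr1, Ccr2 and Ccr4 were added after their values were seen. Ccr1 had 3.12, 1.35 and 2.96 TPM, Ccr2 1.34, 0.35 and 0.70 TPM and Ccr4 0.26, 0.31 and 0.22 TPM in replicates 1, 2 and 3. Ccr2 averaged 5.17 ± 1.74 TPM in the second table, against 0.80 ± 0.50 TPM in the gene table.

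CXC chemokines gave values for comparison. Of the 3 interferon-inducible ones 1 reached 1 TPM in every library, Cxcl10, with 367, 52.9 and 87.9 TPM in replicates 1, 2 and 3. It had the order of libraries of Ccl5 and, in TPM of the gene table, a level close to it. In the second table Cxcl10 averaged 118 ± 124 TPM, against 272 ± 237 TPM for Ccl5 (SD, n = 3). Cxcl11 had 2.85 ± 4.03 TPM and Cxcl9 0.17 ± 0.21 TPM. Of 7 genes listed as neutrophil-attracting 2 reached that level, Cxcl2 with 82.0, 8.29 and 76.7 TPM and Pf4 with 2.94 ± 2.32 TPM from 5, 11 and 13 counts. Cxcl1 had 5.80, 0.82 and 13.7 TPM, so it was highest in replicate 3, unlike the 7 CC chemokines, and Cxcl15 was listed at 0. Of these 7, 5 reached 1 TPM in every library of the second table, as did 2 of the 3 interferon-inducible ones, and Cxcl15 averaged 3.02 ± 0.66 TPM. In each of the CXC lists 2 genes passed the filter of a mean of 50 counts. Their SD of log2 CPM was 1.56 for Cxcl2, 2.00 for Cxcl1, 1.43 for Cxcl10 and 1.97 for Cxcl11, against a median of 0.96 for the 8 CC genes. A wide spread between libraries was therefore not particular to the CC genes.

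Markers of other cells that a marrow culture can hold were low in the gene table and less so in the second transcript table. In the gene table, none of 9 T and NK cell genes reached 1 TPM in any library and 4 had 0 counts in all 3, with a summed level of 0.19 to 0.21 TPM. The 6 neutrophil genes summed to 0.71 to 1.27 TPM there, with Ly6g and Cxcr2 at 0 counts, and the 5 B cell genes to 0.24 to 0.38 TPM. Among 6 dendritic cell genes Zbtb46 alone was at 1 TPM or more throughout, and the list summed to 2.89, 2.02 and 2.23 TPM in replicates 1, 2 and 3. The 4 mast cell and basophil genes summed to 0 to 0.23 TPM, with 3 of them at 0 counts. The 6 stroma and endothelium genes summed to 1.66 to 2.39 TPM, none at 0 in all libraries. Among them Pecam1 had 47, 111 and 35 counts in replicates 1, 2 and 3. In the same order Col1a1 had 0, 41 and 28, Col1a2 0, 28 and 21 and Pdgfrb 6, 13 and 0 counts. In log2 CPM, which scales for depth, replicate 2 was above the gene's own mean for each of these. Its deviation was 0.52 for Pecam1, 1.35 for Col1a1, 1.14 for Col1a2 and 0.95 for Pdgfrb. For the remaining genes of the list it was 0.98 (Cdh5) and -0.21 (Pdgfra). In TPM, Col1a1 and Col1a2 were highest in replicate 3 and Pecam1 in replicate 1. Most of these values rest on low counts. The second transcript table gave 16.7 to 20.7 TPM for the T and NK cell list, with Cd3d at 14.01 ± 1.44 and Cd8a at 2.47 ± 0.38 TPM (SD, n = 3). It gave 6.40 to 10.8 TPM for the neutrophil list, with Cxcr2 at 4.42 ± 1.61 and Mpo at 2.11 ± 0.50 TPM. The stroma and endothelium list came to 10.6 to 14.6 TPM there, with Pecam1 at 9.50 ± 2.00 TPM, and the dendritic cell list to 7.30 to 7.48, the B cell list to 1.43 to 1.78 and the mast cell and basophil list to 0.626 to 1.53 TPM. The macrophage list came to 1587, 1289 and 1445 TPM in replicates 1, 2 and 3. Which table is nearer to the true level of these markers was not tested. The single markers named here, and Ccl24, Ccl11 and Ccl28 above, were chosen after their values were seen. In bulk RNA, fewer cells of a kind and less RNA per cell cannot be told apart, and the part of these lists in the spread of the chemokines was not tested.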

How the data were processed

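Total RNA of the chromatin fraction was measured in 3 libraries of 1 group, so no comparison between groups and no test was made. Per the notes deposited with each library, values refer to mm10 and annotation M21, the gene and first transcript tables come from a transcriptome alignment, and the second transcript table comes from the reads. Which aligner and programs were used is not given in the sources used here. Expected counts (estimated counts in the second transcript table) are as deposited and not whole. TPM was scaled for effective length by the authors, as the headers name it. Deposited FPKM values served as an alternative. The deposited interval bounds of TPM are of unstated level.

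Genes were matched by identifier to GENCODE M21. Rows of phiX, spike-ins and number-only entries took 2.46, 0.484 and 0.327% of counts and stayed out of library sizes. No column of another sample was present. Counts were rounded to whole numbers, and log2 CPM came from edgeR 4.0.16 (TMM factors 1.03, 0.984 and 0.985, prior count 2), with DESeq2 1.42.0 size factors as an alternative, in R 4.3.3, Python 3.11.15 and pandas 2.3.3. The calculation was tested on simulated data. Background were protein-coding genes that averaged 50 counts or more. Neighbours in level were said to differ where the difference of means exceeded the root of the summed squared SDs.

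The members and lists were chosen with earlier results of these data known. Named were all members, their transcripts at a mean of 1 TPM or more in either table, protein-coding genes of at least 1 TPM within a block, the 3 highest and the lowest gene of each chemokine and receptor list, and the 5 genes nearest in profile; 1 gene that the rule names is not reported here. Members less than 300 kb apart formed a block. Promoter sequences are RefSeq's and transcripts GENCODE's. Alternatives were other scalings, units, filters, pseudocounts, the second table and each library left out.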

Additional observations from a re-analysis of the deposited data

How the results depend on the processing

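In all, 264 values were recomputed for 53 results, and 48 moved by more than the spread between libraries, or past 1.5 times for a count or an SD, or to another rank. None changed its sign among ratios whose mean exceeded their SD. Leaving out 1 library at a time gave a median SD of the 8 chemokines of 0.38 to 1.32 and a count with an SD of at least 1 of 0 to 6, lowest without replicate 1 in each case, while 0.762 to 1.27% of protein-coding genes reached that SD. With the second transcript table that count was 2, and the share of protein-coding genes 0.528%. The count of 7 genes highest in replicate 1 and lowest in replicate 2 was the same with DESeq2 size factors, library size alone, TPM and a mean count of 10, and 6 in the second table (19.2% of protein-coding genes). The retained-intron share in the second table was 49.99% for Ccl2 and 71.4% for Ccl6, against 64.4% and 60.4%. Mean log2 ratios in the second table were -1.49 for Ccl12 to Ccl2, 2.37 for Ccl9 to Ccl6 and 0.191 for Ccl22 to Ccl17, against -2.15, 0.75 and -0.0051. With a pseudocount of 0.1 TPM the last was 0.185. The cause was not tested. Low counts limit Ccl12, Ccl17 and Ccl22 most, and the 3 libraries limit every SD.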
